A study of Homo sapiens with 42 samples.

Results

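The comparison described here was between AC16 cells expressing the D308V form of RPL3L and AC16 cells expressing wild-type RPL3L, both with the cells' own RPL3 lowered by a hairpin. AC16 is an established line of human origin that the labels describe as resembling cardiomyocytes. All lines used here were given doxycycline at 1 ug/ml, which induces the hairpin. The D308V group (hairpin against RPL3 with RPL3L D308V, 3 libraries) was set against the RPL3L-WT group (the same hairpin with wild-type RPL3L, 3 libraries). D308N (the same hairpin with RPL3L in which the same residue is changed to asparagine, 3 libraries), shRPL3 (the RPL3 hairpin alone, 3 libraries) and shScramble (a scrambled hairpin, 3 libraries) stand beside them where named. The series held 42 libraries, of which 30 measured polyA-selected RNA from whole cells in 10 groups. Genes with a mean of at least 1 TPM (a transcript level corrected for length and scaled to the library) over the 6 libraries compared were tested, 14297 of 60606 genes. The hairpin was delivered by lentivirus with hygromycin selection, and the RPL3L construct by a second lentivirus with sorting of BV421-positive cells, so each line is a selected population. Whether it descends from 1 clone is not stated. Nothing in the labels says that replicates came from separate cultures, so p-values measure only the spread between these samples. TPM keep no depth, so the depth of these libraries is unknown.

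RPL3 is a protein of the large (60S) ribosomal subunit that reaches toward the peptidyl transferase centre, where peptide bonds are made. RPL3L is its paralog, used in heart and skeletal muscle in place of RPL3, and variants of RPL3L have been linked to dilated cardiomyopathy. In mice that lack Rpl3l, Rpl3 rises in the heart. Building a ribosome takes ribosomal proteins, assembly factors and snoRNAs, and cells adjust chaperones, stress factors and lipid synthesis to how much protein they make.

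RPL3L lies on chromosome 16 at 1943974 to 1957606 and RPL3 on chromosome 22 at 39312882 to 39320389, both on the minus strand (GRCh38, GENCODE 29). The codon of RPL3L that D308V replaces occupies chr16:1946652-1946654 in exon 7 of 10, and the stretch around it is shown because the study compares changes of this codon. The matching stretch of RPL3 has the codon of the same number in the middle, at chr22:39314134-39314136 in exon 7. Both are reference coding sequence from 5′ to 3′ with the codon in capitals.
RPL3L: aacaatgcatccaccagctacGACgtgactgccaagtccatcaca
RPL3: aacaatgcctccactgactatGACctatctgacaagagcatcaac
The paralogs carried the same GAC codon for aspartate there and differed at 13 of the 45 bases shown. These windows are reference sequence and were not read from the cells, so the change itself was not checked here.

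Some libraries were technically unlike the rest, which no label records. Pseudogene levels (510 entries) set RPL3L-WT 1 and 2 and 4 libraries of other variants, here called the second kind, apart from the other 24, the first kind. On the leading principal component the distance between these sets was 16.0, and no other step between neighbouring libraries exceeded 1.43. All 3 D308V libraries and RPL3L-WT 3 were of the first kind. Every gene was therefore tested against the 3 RPL3L-WT libraries pooled and again against RPL3L-WT 3 alone, within libraries of the first kind. In that fit the lone RPL3L-WT library is assumed to vary like the other groups. A gene is said below to have risen or fallen only where both fits called it in the same direction at an adjusted p of 0.05. Each fold change is a difference of mean log2(TPM + 1), so that changes of genes at low TPM are understated, and values in square brackets after a gene are its log2 fold changes, pooled first and against RPL3L-WT 3 second. The cells were checked against cell type markers: of 19 cardiomyocyte genes 1 (GATA4) averaged at least 1 TPM over the 6 libraries, and MYL2, MYL7 and TBX5 were at 0 in all 6. All 14 fibroblast genes averaged at least 1 TPM. The heart-like label of the line thus rests on few of these markers at the RNA level.

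The RPL3 transcript remained low in both groups, and D308V was carried at a level close to that of the wild-type construct or somewhat below it. RPL3 had 571, 568 and 569.7 TPM in D308V, against 445, 439 and 673 TPM in RPL3L-WT. The D308V libraries lay between RPL3L-WT 1 and 2 on one side and RPL3L-WT 3 on the other, so the direction depended on the library kind. The log2 fold change was 0.16 (SE 0.18) against the pooled RPL3L-WT libraries and -0.24 (SE 0.05) against RPL3L-WT 3, with limma adjusted p = 0.518 and 0.00337. With the kind of library as a term in the model it was -0.27 (limma adjusted p = 1.75e-05). For comparison RPL3 had 539, 499.6 and 569.8 TPM in shRPL3, against 1565, 1534 and 1611 TPM in shScramble, so every D308V library was far below the scrambled hairpin.

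RPL3L had 2984, 2667 and 2911 TPM in D308V, against 2982, 2791 and 3798 TPM in RPL3L-WT. All 3 D308V libraries were below RPL3L-WT 3 and overlapped with RPL3L-WT 1 and 2. The log2 fold change of RPL3L was -0.15 (SE 0.99) against the pooled RPL3L-WT libraries and -0.41 (SE 1.72) against RPL3L-WT 3, with limma adjusted p = 0.923 and 0.901. One library of the hairpin alone, shRPL3 3, held 121 TPM of RPL3L where shRPL3 1 and 2 held 0.0290 and 0.0353 TPM, and this widened the shared spread. Without that library the fold change against RPL3L-WT 3 kept its value with limma adjusted p = 1.41e-04, and the pooled one had limma adjusted p = 0.328. Of the construct's own genes, rtTA3, the doxycycline-responsive activator, averaged 9590.0 ± 627 TPM in D308V and 11889 ± 1266 TPM in RPL3L-WT (SD, n = 3 each), with 13343 TPM in RPL3L-WT 3, the library of the same kind. EBFP2, its blue fluorescent protein, averaged 9729 ± 699.6 TPM in D308V and 16052 ± 2593 TPM in RPL3L-WT (SD, n = 3 each), with 13066 TPM in RPL3L-WT 3. The part of construct dose in the differences below was not tested.

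**Figure D1:**
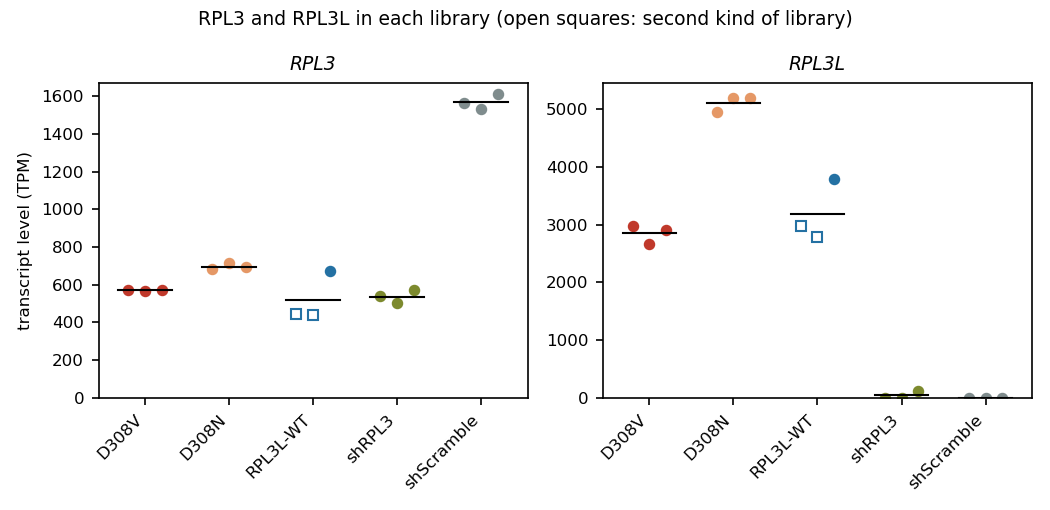
TPM of RPL3 and RPL3L in each library (points) with the group mean (bar), for D308V, D308N, RPL3L-WT, shRPL3 and shScramble. Open squares are libraries of the second kind, RPL3L-WT 1 and 2, whose RPL3 lay below the D308V libraries while that of RPL3L-WT 3 lay above them.

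Across the transcriptome, D308V cells differed from RPL3L-WT cells at 1361 genes that rose (9.52% of those tested) and 794 that fell (5.55%) in both fits. These shares are the background for each count below of list members that rose or fell. The genes that rose furthest included the cytokine IL24, the heme oxygenase HMOX1, the stress pseudokinase TRIB3 and the snoRNA host GAS5. Those that fell furthest included the stress-inducible HSP70 genes HSPA1A and HSPA1B, the collagen chain gene COL1A2 and the fatty acid desaturase gene SCD. Few changes were large: 73 genes rose and 37 fell by at least 1 on the log2 scale in both fits.

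The pooled fit alone called 3163 genes higher (22.1%) and 1315 lower (9.2%). Against RPL3L-WT 3, 1559 were higher (10.9%) and 1476 lower (10.3%). No gene was called in opposite directions by the 2 fits. They share the D308V libraries and RPL3L-WT 3, so they are not independent and opposite calls were unlikely from the start. The excess of higher calls in the pooled fit came with a median log2 fold change over all genes of 0.11, which was 0.01 against RPL3L-WT 3. Median-of-ratios scaling took the pooled split to 2222 higher and 2176 lower. Without RPL3L-WT 1 the pooled fit called 2009 higher and without RPL3L-WT 2 1875. A further fit used RPL3L-WT 1 and 2 but not 3, with their kind as a term, and called 2025 higher (14.2%) and 1380 lower (9.65%). Under median-of-ratios scaling 1155 genes were higher (8.08%) and 1150 lower (8.04%) in both main fits. Of the 2155 genes called in both main fits, 1600 were called the same way with RPL3L-WT 1 and 2 and a kind term and 25 had the opposite sign.

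**Figure D2:**
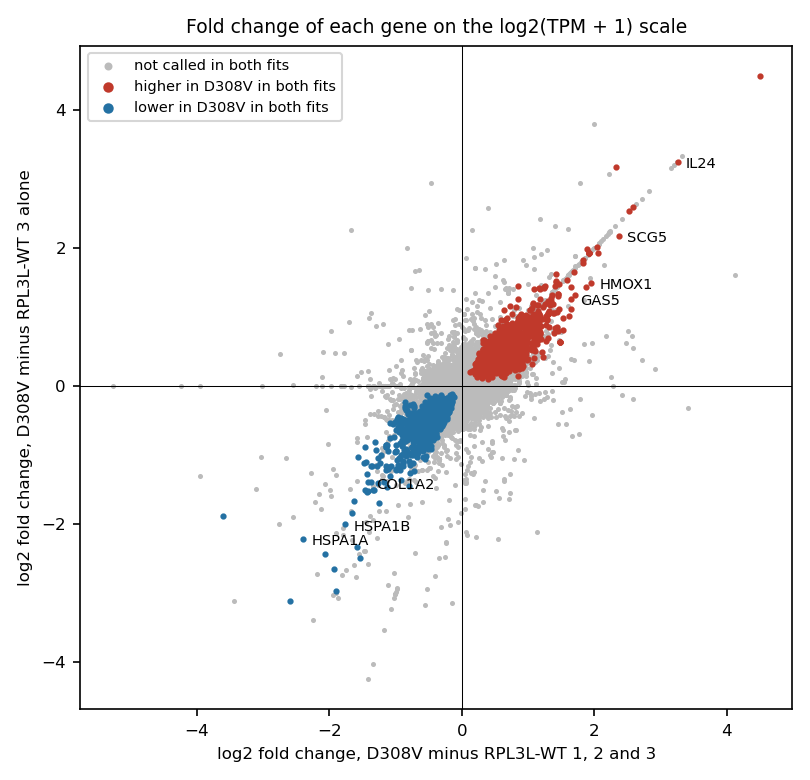
Log2 fold change of each of the 14297 genes in D308V against RPL3L-WT 1, 2 and 3 pooled (x axis) and against RPL3L-WT 3 alone (y axis). Red and blue points are the 1361 genes higher and 794 lower in both fits. Grey points along an axis moved in 1 fit only.

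Among single genes that rose, IL24 ranked first. Genes were ranked only where the D308V and RPL3L-WT libraries did not overlap, so a lack of overlap in ranked genes was set by that choice. IL24, a secreted cytokine of the IL-10 family, had 98.8, 106 and 106 TPM in D308V, against 13.0, 7.46 and 9.97 TPM in RPL3L-WT. Every D308V library was far above every RPL3L-WT library. Its log2 fold change was 3.26 (SE 0.16) against the pooled RPL3L-WT libraries and 3.25 (SE 0.15) against RPL3L-WT 3, with limma adjusted p = 7.53e-13 and 6.09e-11. The secretory chaperone gene SCG5 [2.38 and 2.18] had 31.3, 32.5 and 32.8 TPM in D308V, against 5.87, 4.20 and 6.33 TPM in RPL3L-WT, with no overlap. GPNMB, a transmembrane glycoprotein of lysosome-rich cells, had 71.4, 76.2 and 73.1 TPM in D308V, against 26.1, 26.2 and 25.8 TPM in RPL3L-WT. RPL3L-WT was almost the same in all 3 libraries, and the log2 fold changes were 1.46 and 1.48. The membrane metalloprotease gene MME [1.45 and 1.33], the small GTPase-like gene RND3 [1.31 and 1.24], the GTPase gene RAB27B [1.26 and 1.45] and the lipolysis inhibitor gene G0S2 [1.24 and 1.43] also rose. So did SP140 [1.40 and 1.45], which encodes a nuclear body protein, PLEKHF1 [1.45 and 1.31], and the long non-coding RNA genes LINC00973 [1.87 and 1.44] and LINC01173 [1.36 and 1.32]. LINC01173 was not called when RPL3L-WT 1 and 2 were used with a kind term (limma adjusted p = 0.0712).

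Outside the gene groups below, S100A10, which encodes the annexin A2 partner p11, had 235, 254 and 239 TPM in D308V, against 632, 618 and 639 TPM in RPL3L-WT. The groups did not overlap, with log2 fold changes of -1.37 and -1.39. CCDC80, a matrix-associated protein gene, had 133, 128 and 129.8 TPM in D308V, against 367, 347 and 290.3 TPM in RPL3L-WT, again without overlap [-1.35 and -1.15]. Genes at low levels that fell were ADAMTSL4 [-1.42 and -1.51], ADAM33 [-1.34 and -1.50], ARHGAP33 [-1.26 and -1.40], AFP [-1.43 and -1.28], FGF23 [-1.43 and -1.54] and RGPD4-AS1 [-1.46 and -1.50]. RGPD4-AS1 and FGF23 were lost in some alternatives. With RPL3L-WT 1 and 2 and a kind term they had limma adjusted p = 0.0716 and 0.0896.

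Cytosolic heat shock genes fell together in D308V. These genes encode the HSP70, HSP90, HSP40 and small heat shock chaperones that fold new and damaged proteins, and heat shock factor 1 drives them through paired GAA and TTC letters in their promoters. Of 22 tested members, 18 fell and 1 rose, and the list's median log2 fold change was -0.51 pooled and -0.54 against RPL3L-WT 3. The inducible HSP70 gene HSPA1A had 64.2, 54.6 and 59.8 TPM in D308V, against 335, 343.21 and 279 TPM in RPL3L-WT. All D308V libraries were far below the lowest RPL3L-WT library. The log2 fold change was -2.40 (SE 0.10) against the pooled RPL3L-WT libraries and -2.21 (SE 0.13) against RPL3L-WT 3, with limma adjusted p = 4.32e-14 and 6.10e-10. HSPA1B had 122, 98.7 and 115 TPM in D308V, against 346, 349 and 450.5 TPM in RPL3L-WT, also without overlap [-1.76 and -2.01]. HSPA1A and HSPA1B are near-identical neighbours on chromosome 6, and the unnamed transcript ENSG00000285565 overlaps HSPA1B, so reads may be split among them. Summed over the 3, D308V averaged 186 ± 13.9 TPM and RPL3L-WT 952 ± 144 TPM (SD, n = 3 each), with 786 TPM in RPL3L-WT 3.

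HSPA6, a strictly inducible HSP70 gene, had 1.13, 1.19 and 1.71 TPM in D308V, against 5.84, 6.32 and 6.41 TPM in RPL3L-WT [-1.62 and -1.67]. HSPA8, the constitutive HSP70 and the most abundant of those named, had 1148, 1135 and 1171 TPM in D308V, against 2925, 2892 and 2299 TPM in RPL3L-WT. The groups did not overlap although RPL3L-WT 3 was the lowest of its group, and the log2 fold changes were -1.22 and -0.998. The HSP110-family gene HSPA4L was lower, at 3.84 ± 0.148 TPM in D308V, against 7.25 ± 1.29 TPM in RPL3L-WT (SD, n = 3 each) [-0.76 and -1.01]. The member that rose was HSF1 itself [0.56 and 0.33], the gene of heat shock factor 1, named because it was the only one to rise. With RPL3L-WT 1 and 2 and a kind term, 16 members were lower and 0 higher.

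The promoters of 4 of these genes are shown because the genes fell together and carry the letters that heat shock factor 1 is known to bind. Each is RefSeq sequence (GRCh38.p14) from 250 bases before to 50 bases after the transcript start, 5′ to 3′, with matches to GAANNTTC or TTCNNGAA in capitals. Both motifs read the same on the other strand, and matches may overlap each other.
HSPA1A, chr6:31815293-31815592, plus strand: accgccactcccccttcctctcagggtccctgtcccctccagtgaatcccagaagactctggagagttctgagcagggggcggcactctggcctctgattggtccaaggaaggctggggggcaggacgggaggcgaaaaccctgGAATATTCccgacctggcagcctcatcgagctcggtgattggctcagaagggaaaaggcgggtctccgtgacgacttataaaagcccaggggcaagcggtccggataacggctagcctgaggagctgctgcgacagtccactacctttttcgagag
HSPA1B, chr6:31827488-31827787, plus strand: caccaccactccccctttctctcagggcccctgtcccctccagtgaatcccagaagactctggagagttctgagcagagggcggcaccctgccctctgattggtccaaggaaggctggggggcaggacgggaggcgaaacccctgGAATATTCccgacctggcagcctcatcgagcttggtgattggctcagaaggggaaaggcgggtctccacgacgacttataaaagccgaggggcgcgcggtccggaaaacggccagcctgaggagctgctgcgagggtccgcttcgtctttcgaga
HSPA6, chr1:161524290-161524589, plus strand: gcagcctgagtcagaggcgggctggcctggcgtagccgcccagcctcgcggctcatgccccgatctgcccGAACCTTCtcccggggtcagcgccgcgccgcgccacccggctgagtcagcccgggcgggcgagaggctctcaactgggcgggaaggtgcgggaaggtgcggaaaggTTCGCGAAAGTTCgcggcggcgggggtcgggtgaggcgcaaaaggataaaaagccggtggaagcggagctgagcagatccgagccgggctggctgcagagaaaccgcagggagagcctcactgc
HSPA8, chr11:123062087-123062386, minus strand: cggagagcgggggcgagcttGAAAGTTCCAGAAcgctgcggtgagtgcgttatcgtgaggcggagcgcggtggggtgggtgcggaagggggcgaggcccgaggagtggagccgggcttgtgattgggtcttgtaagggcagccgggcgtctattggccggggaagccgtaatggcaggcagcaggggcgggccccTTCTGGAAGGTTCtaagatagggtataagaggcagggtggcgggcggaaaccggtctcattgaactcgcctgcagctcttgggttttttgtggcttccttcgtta
HSPA1A and HSPA1B each held 1 match, HSPA6 3 and HSPA8 4. Of the 20 tested members with a promoter entry, 14 held a match in at least 1 entry. These 32 entries held one in 46.9% of cases, against 10.2% of the 14723 entries of all genes tested and 13.5% of all 35116. The list was made up of heat shock genes, so a high share was likely from the choice of list and says nothing about D308V. Most of its entries belonged to members that fell, so these could not be set against the rest. A match is a description of the letters only.

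Other protein folding and disposal genes moved less. Of 25 endoplasmic reticulum chaperone and unfolded protein response genes, 9 fell and 2 rose. The lumenal HSP70 gene HSPA5 had 277, 275 and 286 TPM in D308V, against 374, 378 and 386 TPM in RPL3L-WT [-0.44 and -0.47]. The disulfide isomerase genes PDIA6 [-0.54 and -0.61] and PDIA4 [-0.48 and -0.63] and the secreted stress factor gene MANF [-0.84 and -0.54] fell as well, whereas ERN1 [0.84 and 0.87], the gene of the stress sensor IRE1, rose. XBP1, the target of IRE1 [0.44 and 0.16], was the other gene of the list that rose and is named for that reason. Of 33 proteasome subunit genes 6 fell and 0 rose, among them PSMD11 [-0.45 and -0.44], PSMC1 [-0.58 and -0.35], PSMB1 [-0.33 and -0.39], PSMD2 [-0.27 and -0.28] and PSMC2 [-0.74 and -0.25]. Of 14 genes of the CCT chaperonin and prefoldin 1 fell and 0 rose.

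**Figure D3:**
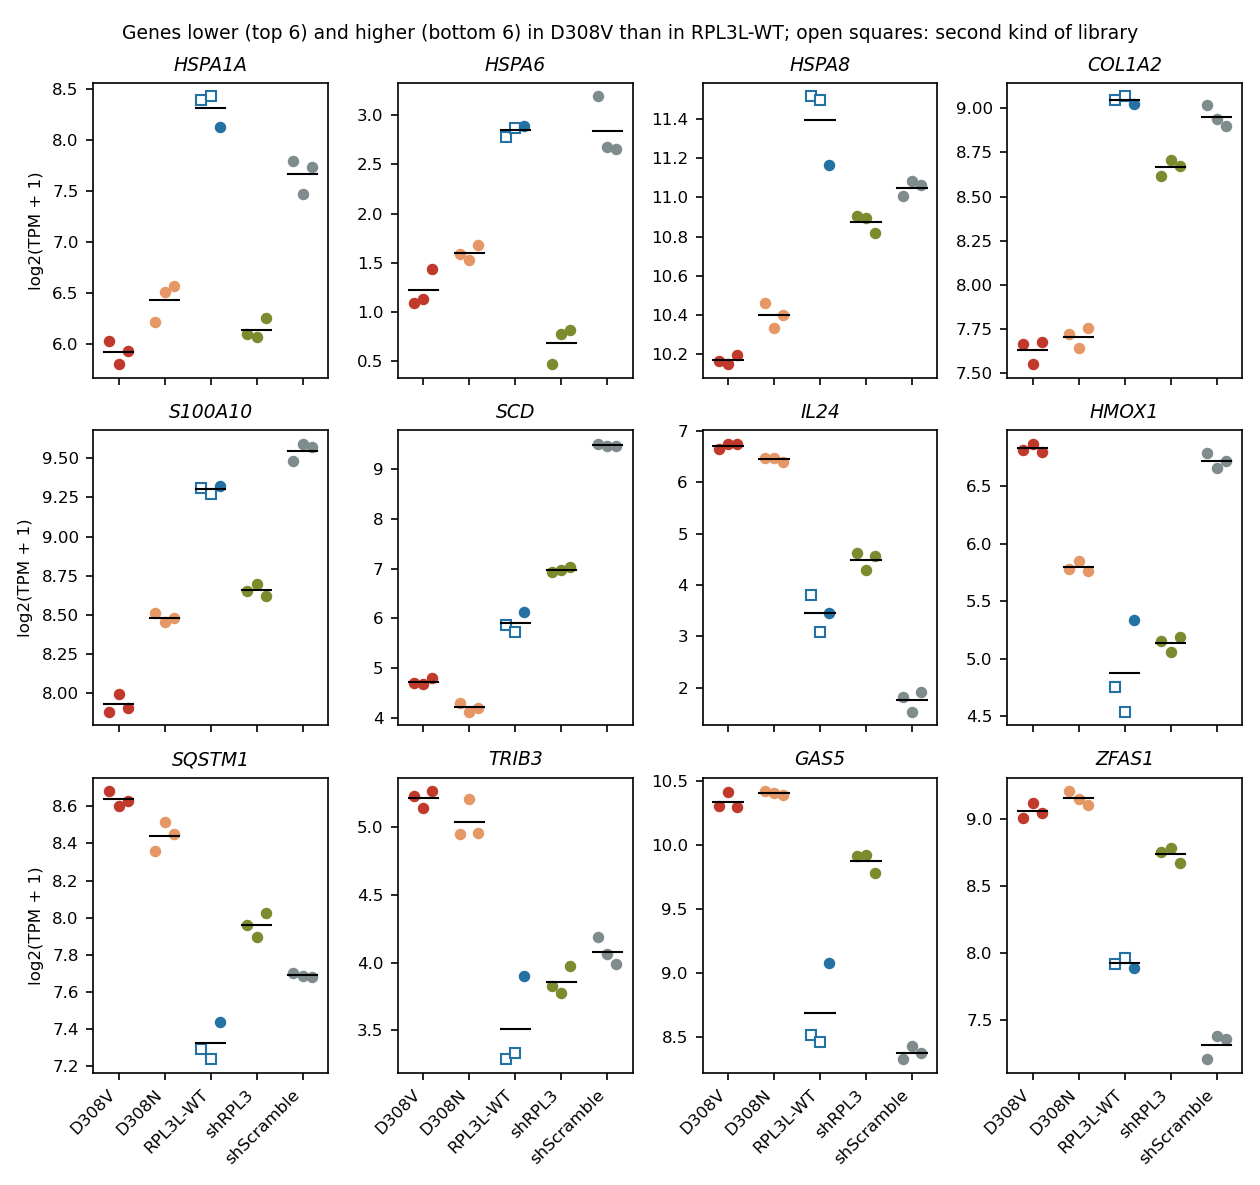
log2(TPM + 1) of 12 genes in each library (points) with the group mean (bar), for D308V, D308N, RPL3L-WT, shRPL3 and shScramble. Open squares are libraries of the second kind. In all 12 panels the D308V libraries lay on one side of all 3 RPL3L-WT libraries. Except for HSPA8 and ZFAS1, this was a condition of the ranking that named the genes.

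Genes of cholesterol and fatty acid synthesis fell together in D308V. They are targets of the SREBP factors, which cells activate when membrane sterol is low, and together they make and import sterols and desaturate fatty acids. Of 20 tested cholesterol synthesis genes 12 fell and 0 rose, with a median log2 fold change of -0.41 pooled and -0.61 against RPL3L-WT 3. With RPL3L-WT 1 and 2 and a kind term 16 were lower and 0 higher. HMGCS1, the enzyme before HMG-CoA reductase, had 36.8, 39.9 and 41.7 TPM in D308V, against 57.0, 53.2 and 67.0 TPM in RPL3L-WT. Each D308V library was below each RPL3L-WT library, and the log2 fold change was -0.57 (SE 0.08) against the pooled RPL3L-WT libraries and -0.75 (SE 0.07) against RPL3L-WT 3, with limma adjusted p = 1.12e-05 and 5.04e-07. SQLE, squalene epoxidase, had 33.5, 33.6 and 33.8 TPM in D308V, against 52.7, 54.6 and 52.5 TPM in RPL3L-WT [-0.65 and -0.63]. The isomerase gene IDI1 [-0.60 and -0.77] and the late-step gene HSD17B7 [-0.66 and -0.89] fell likewise.

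Of 15 tested genes of sterol sensing, uptake and export, 5 fell and 2 rose. SREBF1, the gene of SREBP-1, had 16.3, 12.5 and 12.9 TPM in D308V, against 25.7, 32.0 and 23.2 TPM in RPL3L-WT. The log2 fold change was -0.91 (SE 0.15) against the pooled RPL3L-WT libraries and -0.71 (SE 0.19) against RPL3L-WT 3, with limma adjusted p = 8.79e-05 and 0.0135. The sterol carrier gene STARD4 had 10.8, 9.75 and 11.8 TPM in D308V, against 18.3, 14.7 and 21.5 TPM in RPL3L-WT [-0.69 and -0.94]. Those that rose were NR1H2 [0.82 and 0.49], the gene of the oxysterol receptor LXR-beta, and NPC1 [0.66 and 0.36], the lysosomal cholesterol exporter, NPC1 being named because it was the only other gene to rise.

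Of 16 tested genes of fatty acid synthesis and desaturation, 7 fell and 1 rose. SCD, the delta-9 desaturase, had 25.3, 24.8 and 26.9 TPM in D308V, against 57.5, 52.0 and 69.2 TPM in RPL3L-WT, without overlap. Its log2 fold change was -1.17 (SE 0.08) against the pooled RPL3L-WT libraries and -1.40 (SE 0.07) against RPL3L-WT 3, with limma adjusted p = 5.92e-10 and 2.09e-10. The activating enzyme gene ACSL3 [-0.80 and -0.67] and the desaturase family genes FADS3 [-0.58 and -0.77] and FADS2 [-0.46 and -0.91] fell, and ACSL1 [0.63 and 0.46] rose. Among 17 tested genes of fatty acid carriage, storage and oxidation 4 rose and 2 fell.

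Among genes that build ribosomes, most snoRNA host genes and part of the assembly factors rose in D308V. These hosts carry, in their introns, the small nucleolar RNAs that guide modification of rRNA, and their spliced transcripts are poorly translated and removed by nonsense-mediated decay when ribosomes engage them. Of 20 tested hosts, 15 rose and 0 fell, with a median log2 fold change of 0.76 pooled and 0.52 against RPL3L-WT 3. GAS5 had 1266, 1368 and 1261 TPM in D308V, against 365, 352 and 541 TPM in RPL3L-WT. The lowest D308V library exceeded the highest RPL3L-WT library, RPL3L-WT 3, more than any RPL3L-WT library exceeded another, and the log2 fold change was 1.66 (SE 0.18) against the pooled RPL3L-WT libraries and 1.26 (SE 0.06) against RPL3L-WT 3, with limma adjusted p = 3.95e-07 and 4.72e-11. ZFAS1 had 514, 555 and 528 TPM in D308V, against 241, 249 and 236 TPM in RPL3L-WT, with RPL3L-WT close together [1.13 and 1.17]. SNHG7 [1.28 and 0.97], SNHG15 [1.44 and 0.85] and SNHG17 [0.91 and 0.85] rose in the same way. With RPL3L-WT 1 and 2 and a kind term 13 hosts were higher and 0 lower.

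Of 60 factors that assemble the 60S subunit, 21 rose and 0 fell, and of 52 factors of the 40S subunit, 20 rose and 0 fell. Under median-of-ratios scaling 13 and 17 rose and 1 member of each list fell, beside 8.08% and 8.04% of all genes. With RPL3L-WT 1 and 2 and a kind term 33 and 28 were higher and 1 and 0 lower, beside 14.2% and 9.65% of all genes. RRS1, which brings the 5S particle into the large subunit, had 107, 102 and 110.4 TPM in D308V, against 77.9, 76.5 and 70.5 TPM in RPL3L-WT [0.50 and 0.59]. The late 60S factor gene NOP53 [0.69 and 0.58], the methyltransferase gene NOP2 [0.54 and 0.41], NOC4L [0.41 and 0.51], whose yeast counterpart acts on the 40S subunit, and RRP1 [0.58 and 0.39] also rose. Among small-subunit factors RRP9, a protein of the U3 particle, had 47.6, 43.6 and 45.3 TPM in D308V, against 28.6, 26.5 and 28.2 TPM in RPL3L-WT [0.69 and 0.67]. NOB1, the nuclease that makes the 3′ end of 18S rRNA, rose [0.55 and 0.55], as did RCL1 [0.58 and 0.43], DDX49 [0.77 and 0.41] and UTP18 [0.69 and 0.40]. Of 27 RNA polymerase I and snoRNP genes 8 rose and 0 fell, beside 9.52% and 5.55% of all genes. Under median-of-ratios scaling 3 rose, a share near the 8.08% of all genes. POLR1G [0.44 and 0.59], POLR1C [0.58 and 0.40], POLR1D [0.32 and 0.52], RRN3 [0.65 and 0.30] and TCOF1 [0.35 and 0.27] moved furthest.

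For ribosomal protein genes the count depended on the fit. In both main fits 16 of 46 large-subunit genes rose and 0 fell, and of 32 small-subunit genes 7 rose and 0 fell. Under median-of-ratios scaling 8 and 3 rose, beside 8.08% of all genes. With RPL3L-WT 1 and 2 and a kind term 7 large-subunit genes were higher and 2 lower, and 5 small-subunit genes were higher and 1 lower, shares close to the 14.2% of all genes that were higher in that fit. The median log2 fold changes against RPL3L-WT 3 were 0.09 and 0.11. RPL36 had 1162, 1189.7 and 1161 TPM in D308V, against 896, 920.4 and 849.9 TPM in RPL3L-WT [0.40 and 0.46]. RPS6 had 3052, 3167 and 3111 TPM in D308V, against 2219, 2198 and 2515 TPM in RPL3L-WT [0.43 and 0.31]. RPL13 [0.73 and 0.44], RPL13A [0.44 and 0.38] and RPL8 [0.46 and 0.31] rose, as did RPS18 [0.86 and 0.25], RPS19 [0.69 and 0.23], FAU [0.31 and 0.22] and RPS13 [0.62 and 0.20]. The pooled values of RPS18, RPS19 and RPS13 were larger than those against RPL3L-WT 3, and RPL3L-WT 1 and 2 held less of them than RPL3L-WT 3. Many of these genes have processed pseudogenes, which makes their exact TPM uncertain. Of 71 mitochondrial ribosomal protein genes 20 rose and 0 fell. MRPS18A had 103, 104 and 99.2 TPM in D308V, against 55.8, 58.1 and 67.3 TPM in RPL3L-WT [0.75 and 0.59], and MRPS30 [0.60 and 0.58], MRPS2 [0.54 and 0.54], MRPL12 [0.85 and 0.47] and MRPS12 [0.60 and 0.42] rose too.

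**Figure D4:**
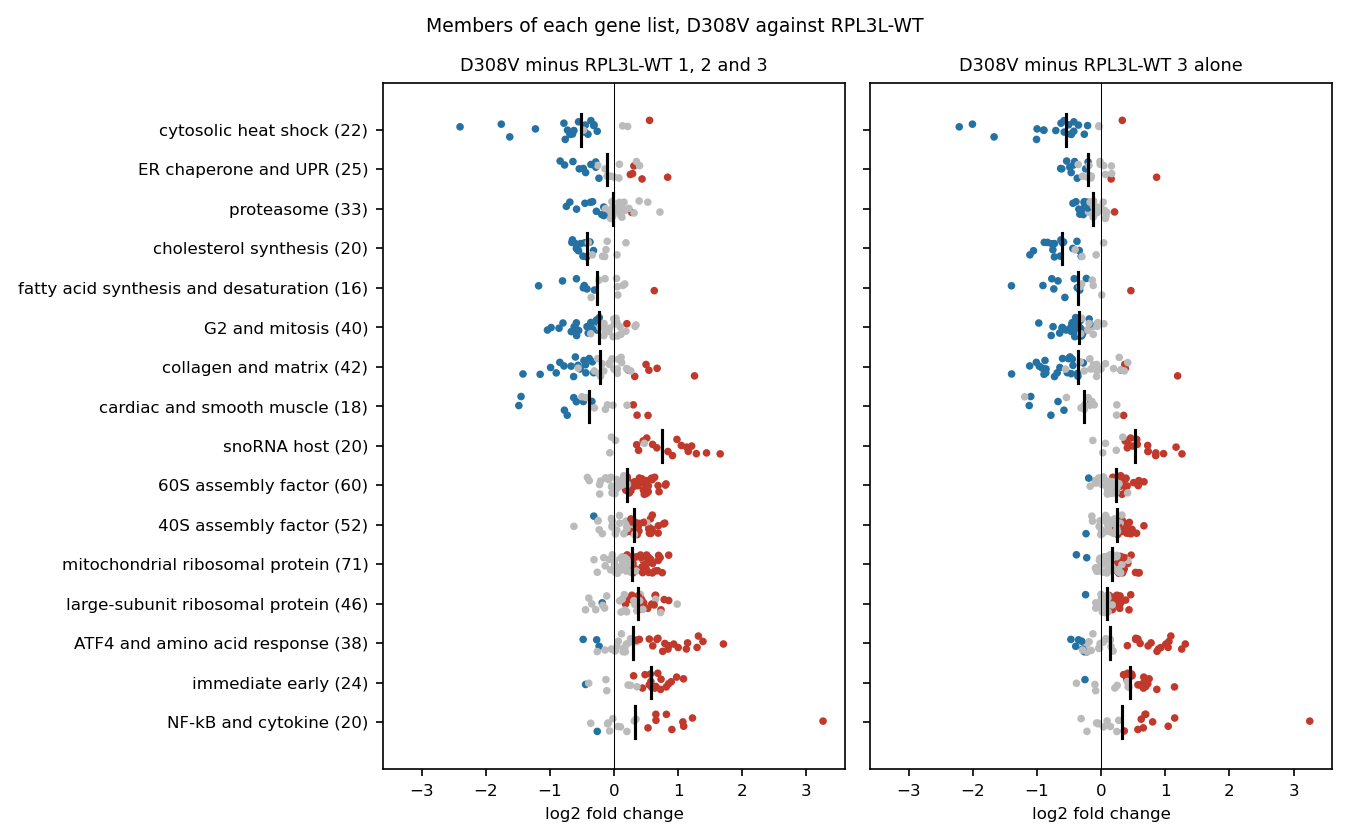
Log2 fold changes of the tested members of 16 gene lists (number tested in brackets) in D308V against the pooled RPL3L-WT libraries (left) and against RPL3L-WT 3 alone (right). Red and blue points passed an adjusted p of 0.05 in that fit and black bars are list medians, which were -0.51 and -0.54 for heat shock and 0.76 and 0.52 for snoRNA hosts.

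Part of the stress and cytokine genes rose. ATF4 is the transcription factor whose translation is favoured when initiation factor eIF2 is phosphorylated, and it drives amino acid transport, synthesis and pro-apoptotic genes. Of 38 tested genes of this response 16 rose and 3 fell, with a median log2 fold change of 0.30 pooled and 0.14 against RPL3L-WT 3. ATF4 itself had 1212, 1191 and 1191 TPM in D308V, against 605, 563 and 628 TPM in RPL3L-WT. The groups were cleanly apart and each was tight, with a log2 fold change of 1.00 (SE 0.05) against the pooled RPL3L-WT libraries and 0.93 (SE 0.04) against RPL3L-WT 3, with limma adjusted p = 1.27e-12 and 4.71e-12. TRIB3, a pseudokinase induced by ATF4, had 36.6, 34.3 and 37.5 TPM in D308V, against 8.77, 9.08 and 13.9 TPM in RPL3L-WT [1.71 and 1.31]. DDIT3, the gene of the stress factor CHOP, had 165, 159 and 149.6 TPM in D308V, against 57.7, 58.7 and 75.8 TPM in RPL3L-WT [1.30 and 1.04]. SESN2, which restrains mTORC1, and GDF15, a secreted stress hormone, rose too [1.39 and 1.06 for SESN2 and 1.32 and 1.09 for GDF15]. The genes that fell were JDP2 [-0.48 and -0.47], ALDH1L2 [-0.27 and -0.35] and SLC1A4 [-0.23 and -0.40], named because they were the only ones. The rise did not extend to most amino acid genes of the list. ASNS, PSAT1, PHGDH, PSPH, SHMT2, MTHFD2, CTH, SLC7A5 and SLC7A11 were not called in both fits, whereas the transporter gene SLC3A2 rose.

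The immediate early list holds genes that respond to growth factor and stress signals. Of its 24 tested genes 14 rose and 0 fell (median 0.57 pooled and 0.46 against RPL3L-WT 3). JUN, ATF3, IER2 and MYC were among those that rose, whereas EGR1, JUNB, NR4A1 and DUSP1 were not called in both fits. The ERK phosphatase gene DUSP6 had 10.7, 13.8 and 12.7 TPM in D308V, against 6.50, 8.62 and 5.04 TPM in RPL3L-WT, without overlap although the RPL3L-WT libraries varied widely [0.82 and 1.14]. MAFF, a small MAF factor, had 50.5, 50.0 and 54.5 TPM in D308V, against 33.3, 31.5 and 27.8 TPM in RPL3L-WT [0.73 and 0.87]. SPRY4 [1.08 and 0.75], KLF4 [0.85 and 0.73] and DUSP4 [0.89 and 0.67] rose. Among the 20 tested genes of NF-kB signalling and cytokines, 8 were up and 0 down in both fits. RELB and CXCL8 were among those that rose, whereas NFKBIA, TNFAIP3, BIRC3, ICAM1, NFKB1, NFKB2, RELA, REL and CCL2 were not called in both fits. Besides IL24, the pattern recognition molecule gene PTX3 had 78.9, 81.5 and 80.9 TPM in D308V, against 34.8, 31.1 and 35.8 TPM in RPL3L-WT [1.22 and 1.15]. The cytokine genes IL6 [1.09 and 1.05], IL1B [1.07 and 0.80] and IL11 [0.82 and 0.69] rose, with IL6 at 21.8 ± 2.35 TPM in D308V and 9.72 ± 1.14 TPM in RPL3L-WT (SD, n = 3 each).

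The NRF2 antioxidant list was divided. Of 26 tested genes 6 rose and 5 fell, beside 9.52% and 5.55% of all genes. HMOX1, which breaks down heme, had 112, 116 and 111 TPM in D308V, against 25.9, 22.2 and 39.4 TPM in RPL3L-WT. The D308V libraries were close to one another and well above RPL3L-WT 3, the highest of its group, with a log2 fold change of 1.96 (SE 0.20) against the pooled RPL3L-WT libraries and 1.49 (SE 0.09) against RPL3L-WT 3, with limma adjusted p = 1.60e-07 and 6.97e-10. SQSTM1, the gene of the autophagy receptor p62, had 409, 387 and 395 TPM in D308V, against 156, 149.7 and 173 TPM in RPL3L-WT, without overlap [1.31 and 1.20]. OSGIN1 [1.09 and 0.78] and MAFG [0.83 and 0.68] rose, and the pirin gene PIR [-0.99 and -1.22] fell.

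Genes of G2 and mitosis fell and those of DNA replication did not move as a group. Of 40 G2 and mitosis genes 19 fell and 0 rose, with a median log2 fold change of -0.24 pooled and -0.35 against RPL3L-WT 3. KIF20A, a kinesin of the dividing cell's midzone, had 53.5, 56.1 and 55.8 TPM in D308V, against 89.7, 91.4 and 109 TPM in RPL3L-WT. No libraries overlapped, and the log2 fold change was -0.80 (SE 0.06) against the pooled RPL3L-WT libraries and -0.97 (SE 0.06) against RPL3L-WT 3, with limma adjusted p = 2.74e-09 and 6.97e-10. The proliferation marker gene MKI67 had 34.5, 35.3 and 37.4 TPM in D308V, against 53.1, 56.7 and 54.7 TPM in RPL3L-WT [-0.60 and -0.60]. The spindle gene DLGAP5 [-0.58 and -0.78], the cytokinesis gene ANLN [-1.04 and -0.55] and the mitotic kinase gene PLK1 [-0.98 and -0.47] fell. For ANLN and PLK1 the RPL3L-WT libraries of the second kind were well above RPL3L-WT 3, with ANLN at 202, 198 and 219 TPM in D308V, against 497, 508 and 301 TPM in RPL3L-WT. Of 44 S phase and DNA replication genes 6 rose and 2 fell, shares not far from the 9.52% and 5.55% of all genes. The licensing factor gene CDT1 rose [0.77 and 0.63] while the helicase partner gene GINS2 fell [-0.43 and -0.31]. In bulk RNA, fewer cells in a phase and less RNA per cell cannot be told apart.

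More collagen, matrix and contractile genes fell than rose in D308V, and matrix proteases and their inhibitors went both ways. Of 42 tested collagen and matrix genes 15 fell and 4 rose, with a median log2 fold change of -0.22 pooled and -0.36 against RPL3L-WT 3. COL1A2, a chain of type I collagen, had 202, 186 and 203 TPM in D308V, against 529, 536 and 519 TPM in RPL3L-WT. RPL3L-WT was even across kinds of library, D308V was well below it in every library, and the log2 fold change was -1.42 (SE 0.06) against the pooled RPL3L-WT libraries and -1.39 (SE 0.08) against RPL3L-WT 3, with limma adjusted p = 1.40e-13 and 4.83e-10. The prolyl hydroxylase gene P4HA2 [-1.15 and -0.89], the short-chain collagen gene COL8A1 [-0.90 and -0.86] and the proteoglycan gene LUM [-0.84 and -1.01] fell, and POSTN, a matricellular protein gene at a low level, rose to 3.10 ± 0.273 TPM in D308V, against 0.720 ± 0.190 TPM in RPL3L-WT (SD, n = 3 each) [1.26 and 1.19]. Summed over the 14 fibroblast markers, which include collagen genes of this list, D308V libraries held 5582 to 6011 TPM and RPL3L-WT libraries 6818 to 7234 TPM. Not every marker was lower. The highest D308V library exceeded the highest RPL3L-WT library at VIM (3242 against 3153 TPM), COL6A1 (341 against 295 TPM), PDGFRA and POSTN, and was below it at the others.

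Of 18 tested cardiac and smooth muscle genes 6 fell and 1 rose. TAGLN, an actin-binding protein of smooth muscle and myofibroblasts, had 155, 155 and 160.59 TPM in D308V, against 513, 484 and 342 TPM in RPL3L-WT [-1.48 and -1.12]. The calponin gene CNN1 had 14.6, 13.0 and 16.4 TPM in D308V, against 45.8, 48.5 and 32.4 TPM in RPL3L-WT [-1.45 and -1.10]. MYL9 [-0.73 and -0.78], CALD1 [-0.77 and -0.58] and CNN2 [-0.48 and -0.67] fell by less. These genes are best known from smooth muscle. GATA6 was the member that rose [0.53 and 0.35] and is named for that reason. The 5 smooth muscle markers, 4 of them detected at 1 TPM or more, summed to 354 to 372 TPM in D308V and 657 to 907 TPM in RPL3L-WT, with the lowest of these in RPL3L-WT 3. Whether a shift between cell states in the culture has a part in these differences was not tested.

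Of 22 matrix protease and inhibitor genes 6 rose and 7 fell, beside 9.52% and 5.55% of all genes. Under median-of-ratios scaling 6 rose and 9 fell, beside 8.08% and 8.04%. MMP2, gelatinase A, had 431, 416 and 428 TPM in D308V, against 257, 233 and 254 TPM in RPL3L-WT, without overlap [0.77 and 0.74]. The stromelysin gene MMP3 [1.30 and 1.21] and the urokinase gene PLAU [0.66 and 0.57] rose, and the tissue plasminogen activator gene PLAT [-0.74 and -0.99] and the protease inhibitor gene SERPINE2 [-0.52 and -0.62] fell. Of 27 TGF-beta, activin and CCN genes 4 rose and 8 fell, beside the same shares of 9.52% and 5.55%. INHBA, the activin A subunit, had 24.3, 25.4 and 25.1 TPM in D308V, against 12.5, 11.8 and 11.9 TPM in RPL3L-WT [0.99 and 1.00]. CCN3 [0.66 and 0.64] and CCN4 [0.94 and 0.55] rose, and BMP4 [-0.82 and -0.78] and the activin B subunit gene INHBB [-0.73 and -0.99] fell.

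Mitochondrially encoded transcripts differed between the 2 fits. In none of the 13 genes was a call made in the same direction by both fits. The pooled fit called 3 lower with a list median of -0.53, and the fit against RPL3L-WT 3 called 1 higher with a median of 0.03. MT-CO1, a subunit of cytochrome c oxidase, had 10587, 10456 and 10339 TPM in D308V, against 11878, 13108 and 9782 TPM in RPL3L-WT [-0.14 and 0.10]. MT-ATP8 had 9936, 10944 and 10259 TPM in D308V, against 29915, 34127 and 9568 TPM in RPL3L-WT, and only RPL3L-WT 1 and 2 stood apart [-1.04 and 0.12].

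For each of the remaining lists the genes that rose and fell in both fits are given in that order. They were 7 and 2 of 35 for lysosome and autophagy, where WIPI1 [0.59 and 0.34] rose and CTSZ [-0.95 and -0.52] and GABARAPL1 [-0.43 and -0.33] fell. They were 3 and 0 of 29 for p53 targets, 3 and 4 of 33 for interferon and antigen presentation, 2 and 3 of 33 for glycolysis and hypoxia, and 4 and 4 of 67 for nuclear-encoded oxidative phosphorylation. They were 4 and 2 of 16 for calcium handling and ion channels, 4 and 1 of 34 for translation factors, 2 and 0 of 20 for cytosolic aminoacyl-tRNA synthetases, 2 and 0 of 13 for the TXNIP, arrestin and MondoA-MYC list, and 1 and 0 of 17 for RGS and G protein signalling. These shares stand beside 9.52% and 5.55% over all genes. The share that rose was furthest above this for calcium handling and ion channels and for lysosome and autophagy. It was also above for the TXNIP list and translation factors, and slightly so for p53 targets and aminoacyl-tRNA synthetases. The share that fell was above 5.55% for calcium handling, interferon and glycolysis, and close to it for lysosome and autophagy and for oxidative phosphorylation. Most of these counts were small.

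The next comparison asked how the valine and asparagine forms of the same residue differ, D308V against D308N, all in libraries of the first kind. Members of the sterol, matrix protease, activin and mitochondrially encoded lists were mostly called higher in D308V where called. Of the 14297 genes 712 were higher (4.98%) and 657 lower (4.6%) in D308V at a limma adjusted p of 0.05. Of 20 cholesterol synthesis genes 8 were higher and 0 lower. HMGCS1 had 36.8, 39.9 and 41.7 TPM in D308V, against 30.5, 28.5 and 32.1 TPM in D308N, a log2 fold change of 0.37 (SE 0.05, limma adjusted p = 1.32e-04). That of SCD was 0.52 (SE 0.05, limma adjusted p = 2.69e-06). Every library of both variants was below every RPL3L-WT library at these 2 genes, and SCD averaged 25.7 ± 1.09 TPM in D308V, 17.6 ± 1.15 TPM in D308N and 59.6 ± 8.76 TPM in RPL3L-WT (SD, n = 3 each).

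Of 13 mitochondrially encoded genes 12 were higher in D308V than in D308N and 0 lower, with a median log2 fold change of 0.35. MT-CO1 had 10587, 10456 and 10339 TPM in D308V, against 8014, 7599.8 and 7915 TPM in D308N. Of 22 matrix protease and inhibitor genes 11 were higher and 1 lower. MMP2 differed by 0.60 (SE 0.03, limma adjusted p = 7.11e-10) and INHBA by 1.19 (SE 0.08, limma adjusted p = 1.13e-08). INHBA had 24.3, 25.4 and 25.1 TPM in D308V, against 11.1, 9.89 and 10.1 TPM in D308N, with D308V above and D308N below the range of the RPL3L-WT libraries. HMOX1 had 112, 116 and 111 TPM in D308V, against 53.9, 56.8 and 53.4 TPM in D308N, a log2 fold change of 1.03 (SE 0.06, limma adjusted p = 4.27e-09). IL24 differed by 0.26 (SE 0.11, limma adjusted p = 0.145), GAS5 by -0.07 (SE 0.04, limma adjusted p = 0.351) and COL1A2 by -0.08 (SE 0.06, limma adjusted p = 0.429). Of 22 heat shock genes 3 were higher and 5 lower, HSPA1A among the lower ones at -0.51 (SE 0.09, limma adjusted p = 0.00142). Of 38 ATF4 genes 10 were higher and 1 lower, of 26 NRF2 genes 9 and 1, of 27 TGF-beta, activin and CCN genes 11 and 2, and of 29 p53 targets 1 and 6.

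The construct itself was less abundant in D308V. RPL3L had 2984, 2667 and 2911 TPM in D308V, against 4951, 5198 and 5198 TPM in D308N, without overlap. The log2 difference was -0.84 (SE 1.22, limma adjusted p = 0.739), and without shRPL3 3 in the fit its SE was 0.04 with limma adjusted p = 2.29e-09. The part of this dose difference in the gene differences was not tested. RPL3 was also lower in D308V, by a log2 fold change of -0.29 (SE 0.04, limma adjusted p = 1.02e-04). The counts of called genes depended on single libraries. Without D308V 3 the fit called 411 higher and 363 lower, without D308N 2 446 higher and 375 lower, without D308N 3 452 higher and 328 lower, and without D308V 2 562 higher and 323 lower.

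The last comparison set D308V against shRPL3, the line with the same hairpin and no RPL3L construct. Of the 14297 genes 1512 were higher (10.6%) and 3389 lower (23.7%) in D308V at a limma adjusted p of 0.05. Median-of-ratios scaling changed the split to 2355 higher and 1999 lower, so counts in 1 direction depend on the scale. Without shRPL3 3, the library with construct RNA, the fit called 1423 higher and 2870 lower. Of 20 cholesterol synthesis genes 19 were lower in D308V and 0 higher, with a median log2 fold change of -0.74 against -0.07 over all genes. SCD had 25.3, 24.8 and 26.9 TPM in D308V, against 121, 125 and 129 TPM in shRPL3, a log2 difference of -2.24 (SE 0.05, limma adjusted p = 4.33e-16). HMGCS1 differed by -1.17 (SE 0.05, limma adjusted p = 4.40e-12). Of 40 G2 and mitosis genes 38 were lower and 0 higher, and of 42 collagen and matrix genes 27 were lower and 4 higher. Of 38 ATF4 and amino acid response genes 17 were higher and 6 lower, and of 20 genes of NF-kB signalling and cytokines 12 and 0. Of the 46 large-subunit ribosomal protein genes 5 were higher and 12 lower, shares close to the 10.6% and 23.7% of all genes. Of the 32 small-subunit genes 1 was higher and 14 lower, so that more were lower and fewer higher than over all genes.

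Of 22 heat shock genes 14 were lower than in shRPL3 and 1 higher. HSPA1A had 64.2, 54.6 and 59.8 TPM in D308V, against 67.2, 66.0 and 75.5 TPM in shRPL3, with the highest D308V library just under the lowest shRPL3 library. Its log2 fold change was -0.22 (SE 0.09, limma adjusted p = 0.0648), while that of the constitutive HSPA8 was -0.70 (SE 0.04, limma adjusted p = 1.02e-10). IL24 had 98.8, 106 and 106 TPM in D308V, against 23.5, 18.6 and 22.5 TPM in shRPL3, which gave 2.22 (SE 0.11, limma adjusted p = 3.04e-11) on the log2 scale. TRIB3 differed by 1.35 (SE 0.08, limma adjusted p = 3.84e-10) and HMOX1 by 1.70 (SE 0.06, limma adjusted p = 3.96e-13). Of 20 snoRNA hosts 10 were higher and 0 lower. GAS5 had 1266, 1368 and 1261 TPM in D308V, against 968, 969 and 878 TPM in shRPL3, a log2 difference of 0.47 (SE 0.04, limma adjusted p = 9.12e-08). Of 13 mitochondrially encoded genes 10 were higher and 0 lower. 

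With the cells' own RPL3 left in place, the scrambled hairpin gave the base level of these genes, shown here without a test. HSPA1A had 64.2, 54.6 and 59.8 TPM in D308V, against 220.3, 176 and 211 TPM in shScramble, and COL1A2 had 202, 186 and 203 TPM in D308V, against 517, 489 and 478 TPM in shScramble. SCD had 25.3, 24.8 and 26.9 TPM in D308V, against 722, 698 and 701 TPM in shScramble. For these 3 genes the D308V libraries lay far below the scrambled ones. IL24 had 98.8, 106 and 106 TPM in D308V, against 2.53, 1.90 and 2.78 TPM in shScramble, and GAS5 had 1266, 1368 and 1261 TPM in D308V, against 319.8, 343.04 and 332 TPM in shScramble, both far apart in the other direction. HMOX1 had 112, 116 and 111 TPM in D308V, against 109.6, 100.3 and 104 TPM in shScramble, so its level in D308V was near that of cells with their own RPL3 while RPL3L-WT and shRPL3 were below both. The comparisons of D308V with RPL3L-WT, D308N and shRPL3 share the D308V libraries and are not independent of one another.

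**Figure D5:**
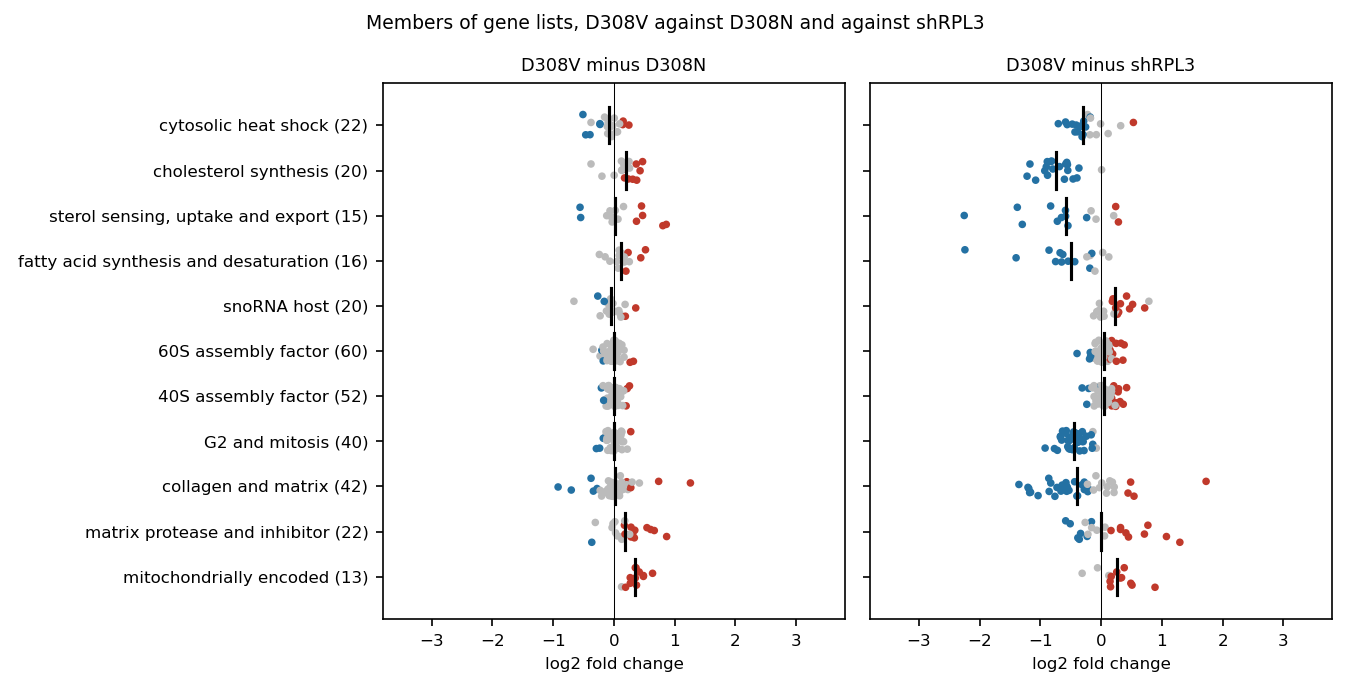
Log2 fold changes of the tested members of 11 gene lists (number tested in brackets) in D308V against D308N (left) and against shRPL3 (right), all in libraries of the first kind. Red and blue points passed an adjusted p of 0.05 and black bars are list medians. For cholesterol synthesis they were 0.20 against D308N and -0.74 against shRPL3.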

How the data were processed

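Per the labels' protocols, mRNA was pulled down by its poly(A) tail and sequenced from Illumina TruSeq libraries. Tools listed in the submitters' processing notes are kallisto, Bowtie, bedtools and bcl2fastq (2.19), with no roles stated. The authors deposited TPM per gene, with the annotation behind it not given in the sources used here. All value columns matched a labelled library, leaving 0 unmatched, and 6 construct entries were kept out of the tests. A deposited rRNA coverage table has no D308V column and was not used here.

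Values were taken to log2(TPM + 1). limma fitted the 10 groups of 30 libraries with lmFit and a robust, trended eBayes, and two-sided p-values were adjusted by Benjamini-Hochberg over the 14297 genes, with a threshold of 0.05. The fit against RPL3L-WT 3 and those against D308N and shRPL3 used the 24 libraries of the first kind. The members and the 36 gene lists (1170 symbols, 4 not in the table, 1069 tested) were chosen with earlier results of these data known. Named genes were called in both fits, protein-coding or named non-coding, at 5 TPM or more in the higher group and without overlap between groups, ranked by the smaller of the 2 fold changes, the first 15 each way. Up to 5 members of each list (those called in both fits with the largest smaller fold, otherwise the most abundant), RPL3 and RPL3L were added. Some genes that this rule names are not reported here. The scripts were tested on simulated data. Alternatives were other scaling, pseudocount and filters, a kind term, a replicate block and leaving out libraries. Software was R 4.3.3, limma 3.58.1, Python 3.11.15 and matplotlib 3.10.9.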

Additional observations from a re-analysis of the deposited data

Results flagged for a closer look

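RNA of the RPL3L construct, whose own entries were used in no test, appeared in a line whose labels name no such construct. The blue fluorescent protein EBFP2 had 434 TPM and rtTA3 428 TPM in shRPL3 3, and rtTA3 had 0.217 TPM in shRPL3 1, against 0 TPM in all 3 shScramble libraries. In D308V rtTA3 averaged 9590.0 ± 627 TPM (SD, n = 3). D308V was therefore also compared with shRPL3 without that library.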

How the results depend on the processing

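Leaving out 1 library at a time, D308V against RPL3L-WT gave 1875 to 4584 genes higher and 931 to 1674 lower, against RPL3L-WT 3 1245 to 1447 and 1230 to 1320, in both 1063 to 1223 and 616 to 677, against shRPL3 1231 to 1423 and 2632 to 2989, and against D308N 411 to 705 and 323 to 633. With only the 6 libraries the pooled fit called 1405 higher and 597 lower. Median-of-ratios scaling gave 2176 lower, and for shRPL3 2355 higher and 1999 lower. The kind term without RPL3L-WT 3, chosen after the data were seen, gave 2025 higher. RPL3 reversed to -0.27 with the kind term and -0.29 when RPL3L-WT 3 was also left out, and over single libraries it ran 0.06 to 0.36 pooled and stayed at -0.24 against RPL3L-WT 3. For RPL3L these ranges were -0.24 to -0.02 and -0.45 to -0.37. Without shRPL3 3 the RPL3L fold change against RPL3L-WT 3 was -0.41 and passed the threshold, also chosen after the data were seen. The cause of these shifts was not tested. Of 680 values of the 30 genes named by rank, 672 kept direction and call, 8 lost the call (FGF23, RGPD4-AS1 and LINC01173) and 0 reversed. Same-numbered libraries did not pair: deviations of D308V and RPL3L-WT correlated at 0.05, 0.02 and 0.02, and not every library correlated best with its own number. With the replicate block the pooled fit called 3102 higher and 1292 lower, for shRPL3 1489 and 3287, and for D308N 670 and 614. Depth is unknown for TPM, so no floor was set for low genes.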

Other observations

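Some entries of the table were found at 1 TPM or more in all 3 D308V libraries and at less than 1/3 of the lowest of these in each of the other 27. There were 5, all pseudogenes in GENCODE 29, on chromosomes 1, 4, 5 and X. RNA5SP189, a 5S rRNA pseudogene on chromosome 5 at 105922994 to 105923108, had 28.7, 14.4 and 24.2 TPM in D308V and was listed at 0 in the other 27. TTC39CP1, on chromosome 4 at 116193997 to 116194751, had 5.72, 4.85 and 3.91 TPM in D308V and was also listed at 0 in the others. NDUFB4P8 had 6.15, 5.07 and 4.04 TPM in D308V and at most 0.994 TPM elsewhere, ENSG00000183171 had 3.57, 2.84 and 3.83 TPM in D308V and at most 0.3997 TPM elsewhere, and ENSG00000249068 had 1.51, 1.08 and 1.68 TPM in D308V and was listed at 0 elsewhere. These were chosen after their values were seen. Pseudogenes share sequence with their parent genes, so reads may be misassigned.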
